A study of Mus musculus with 14 samples.

Results

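Aldo-keto reductases were examined in liver of male and female CD-1 mice that were 3, 4 or 8 wk old, ages on both sides of puberty. Members were 10 genes chosen by name (Akr1c6, Akr1c12, Akr1c13, Akr1c14, Akr1c19, Akr1c20, Akr1b3, Akr1b7, Akr7a5 and Akr1a1), and 9 of them had at least 1 probe that matched through its RefSeq accession, of 19751 genes so matched on the array. Akr1c20 had no matched probe and was not analysed here. The labels name no genetic change and no treatment for any group. The 6 groups were males (M3, M4, M8) and females (F3, F4, F8), and each group had 2 liver RNA pools, of 5 mice each at 3 wk and 6 mice each at 4 and 8 wk. Pools were compared in pairs on two-color Agilent arrays. The sexes were compared at each age (M3/F3, M4/F4 and M8/F8), and 8 wk was compared with each younger age in females (F8/F4 and F8/F3) and in males (M8/M4 and M8/M3), with 2 arrays per comparison, 1 for each pool pair, and with the dyes exchanged between the arrays. A replicate is therefore a pool and not a mouse, and pooling hides the spread among mice. Ratios below are on the log2 scale, male over female or older over younger.

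Aldo-keto reductases are soluble enzymes that use NADPH to reduce aldehydes and ketones to alcohols. The AKR1C enzymes act on ketosteroids, prostaglandins and xenobiotic carbonyls, and several of them set the local level of active steroid hormones. The AKR1B enzymes reduce sugars and lipid aldehydes, AKR1A1 supplies gulonate for ascorbate synthesis, and the AKR7A enzymes detoxify dialdehydes such as those formed from aflatoxin. Liver holds many of these enzymes.

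In the RefSeq gene order (GRCm38.p6), 9 aldo-keto reductase genes lie next to each other on chromosome 13, in the order Akr1c14, Akr1c18, Akr1c13, Akr1c19, Akr1c12, Akr1c6, Akr1c20, Akr1c21 and Akr1e1. A run of 4 more lies on chromosome 6, in the order Akr1b3, Akr1b8, Akr1b10 and Akr1b7. No other protein-coding gene is annotated within either run. Akr1a1 and Akr7a5 both lie on chromosome 4, apart from these runs. Promoter sequences from RefSeq were held for 8 of the 10 members, for all but Akr1b3 and Akr1c20. Each window is the 200 bases before the start that the RefSeq promoter table uses, which is not always the outermost start annotated for the gene. Both starts were the same for Akr1b7, Akr1c12 and Akr1a1. The start used lay downstream of the outermost one by 19 bases for Akr1c13, 24 for Akr7a5, 32 for Akr1c6, 237 for Akr1c19 and 10600 for Akr1c14, so the windows of Akr1c19 and Akr1c14 lie wholly within the annotated genes. The windows are shown for Akr1c13, Akr1c12 and Akr1c19, whose sequences are related and whose ratios moved together across the arrays (correlation r of 0.721 to 0.883). Moving together was not particular to them. Akr1c14 had r of 0.849, 0.744 and 0.589 with these genes in that order, and Akr7a5 on chromosome 4 had 0.796, 0.647 and 0.619. A link between the windows and the ratios was not tested. Capitals mark the letters CATTAG on either strand, which were picked after the sequences had been read.
Akr1c13, chr13:4190987-4191186, plus strand: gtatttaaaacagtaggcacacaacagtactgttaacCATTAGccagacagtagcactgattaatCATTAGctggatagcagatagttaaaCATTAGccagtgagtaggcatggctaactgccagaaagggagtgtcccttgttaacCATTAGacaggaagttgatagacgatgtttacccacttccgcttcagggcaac
Akr1c12, chr13:4279400-4279599, minus strand: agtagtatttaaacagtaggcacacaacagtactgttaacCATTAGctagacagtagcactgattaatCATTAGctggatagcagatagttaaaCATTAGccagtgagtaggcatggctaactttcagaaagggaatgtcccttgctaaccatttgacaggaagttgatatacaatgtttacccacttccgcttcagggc
Akr1c19, chr13:4233540-4233739, plus strand: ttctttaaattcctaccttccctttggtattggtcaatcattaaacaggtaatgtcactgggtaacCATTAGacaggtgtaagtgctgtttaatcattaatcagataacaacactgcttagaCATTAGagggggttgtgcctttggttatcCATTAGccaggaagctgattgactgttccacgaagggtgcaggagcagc

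CATTAG occurred 4 times in the Akr1c13 window and 3 times in each of those of Akr1c12 and Akr1c19, each time on the strand of the gene. It occurred at least once in 5.13% of 32851 promoter windows of the same length and at least 3 times in 6 of them, of which these related windows are 3. Since the letters were picked from these windows, the counts are a description only. The windows of the other 5 members held none. In a global alignment the Akr1c12 and Akr1c13 windows were identical in 188 of 204 columns (92.2%), Akr1c13 and Akr1c19 in 62.2% and Akr1c12 and Akr1c19 in 60.1%. The other 25 pairs of member windows ranged from 43.3% to 51.8%. Windows are also shown for the other called members, Akr1c14, with no capitals because it held no CATTAG, and Akr1b7, with the letters CCAAT in capitals.
Akr1c14, chr13:4059391-4059590, plus strand: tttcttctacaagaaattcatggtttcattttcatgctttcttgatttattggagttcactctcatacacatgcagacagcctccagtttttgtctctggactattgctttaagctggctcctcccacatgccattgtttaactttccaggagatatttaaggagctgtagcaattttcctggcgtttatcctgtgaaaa
Akr1b7, chr6:34412162-34412361, plus strand: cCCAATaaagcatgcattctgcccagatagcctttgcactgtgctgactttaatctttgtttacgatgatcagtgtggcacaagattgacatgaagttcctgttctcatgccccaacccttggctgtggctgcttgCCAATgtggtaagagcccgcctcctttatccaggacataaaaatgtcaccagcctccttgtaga

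CCAAT, read on both strands, was present in 4 of the 8 member windows (Akr1b7, Akr1c14, Akr1c19 and Akr1c6) and in 29.3% of all windows. TTCNNNGAA, the letters bound by STAT proteins, was found in the Akr1c19 window alone and in 5.49% of all windows. TATAAA was found in the Akr1c6 window alone and in 9.96% of all. TGACNNNGC, the core of the antioxidant response element, and CAAAGTCCA, a site of HNF4, were in none of the 8 member windows and in 2826 and 104 of the 32851 windows. A match describes the letters of the window only.

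All 10 member probes (2 for Akr1b3 and 1 for each other gene) were well above background in every channel of all 14 arrays. Across the array, 55.2% to 77.2% of spots were well above background in a channel. All 6 hepatocyte markers were also measured well above background throughout. Of these, Alb was called lower in M8/M3 (-0.71) and M8/M4 (-0.68) and Serpina1a higher in M8/M3 (0.83). Of the sex chromosome genes Ddx3y, Eif2s3y and Uty were called higher and Xist lower in males in each of the 3 sex comparisons, as the labels have it. The age comparisons differed in the 5 dividing-cell markers, all of which were called lower at 8 wk in each of the 4 age comparisons (medians -2.96 in F8/F4, -3.16 in F8/F3, -2.94 in M8/M4 and -3.79 in M8/M3). Their summed processed intensity was 349 to 746 in M8 and 430 to 1032 in F8, against 6708 to 9973 in M3 and 4706 to 10962 in F3. Of the erythroid markers, Hba-a1 and Epb4.2 were called lower at 8 wk in each age comparison. Alas2 was called higher in M8/M3 (1.37) and M8/M4 (0.98), was not called in F8/F3 (-0.27) or F8/F4 (-0.24), and was called higher in males in M4/F4 (0.78) and M8/F8 (1.89). Marco, a Kupffer cell marker, and Col1a1, a stellate cell marker, were called lower in all 4 age comparisons (-2.20 and -2.25 in M8/M3). In M8/M3, where most member calls fell, Lyve1 (endothelium, -1.20), Krt19 and Krt7 (bile duct, -0.66 and -0.91), Reln (stellate cells, -0.67) and Cela1 (pancreatic acinar cells, -0.69) were also called lower and Ctrb1 (acinar cells, 0.72) higher. The list medians there were -0.25 over 4 endothelial, -0.63 over 4 bile duct, -0.53 over 4 stellate and -0.04 over 5 acinar markers. In M8/F8 Top2a, a dividing-cell marker, was called lower (-1.12) and Ctrb1 higher (0.59). In a bulk sample, fewer cells of a type and less RNA per cell cannot be told apart. Whether these marker differences have a part in the ratios of the aldo-keto reductases was not tested.

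To be called, a gene needed an adjusted p under 0.05 in a limma fit of all probes and arrays (Benjamini-Hochberg), a ratio above 1.5 or below its inverse, and at least 1 of the groups well above background on both arrays. No member was called in M3/F3, where 0.464% of all probes tested were called. In M4/F4 and in M8/F8 1 member was called, lower in males (background 1.44% and 6.31% in either direction, 0.89% and 3.49% lower). In M8/M3 3 members were called higher and 1 lower (background 8.24% higher, 8.55% lower and 16.8% in either direction). None was called in F8/F4, F8/F3 or M8/M4, where the background was 5.41%, 10.8% and 10.1%. In the comparisons with no call, limma gave an unadjusted p below 0.05 at any fold for 1 of 9 members in M3/F3, 3 in F8/F4, 5 in F8/F3 and 7 in M8/M4, against 11.9%, 36.1%, 48.3% and 44.6% of all probes. Error-weighted averages of the deposited ratios, at an unadjusted p below 1e-04 and the same fold, called 1 in M8/M4 (Akr1b7), where they called 10.9% of all probes. They called 0 in M3/F3 (1.04% of all probes), F8/F4 (6.78%) and F8/F3 (11.9%). At an adjusted p below 0.05 and any fold, 2 members were higher in M8/F8 (background 10.3%), 2 in F8/F4 (9.64%), 3 in F8/F3 (15.8%), 5 in M8/M4 (13.9%) and 6 in M8/M3 (20.7%). These are Akr1c12, Akr1c13, Akr1c14, Akr1c19, Akr7a5 and Akr1a1 in M8/M3 and some of the same 6 genes in the others. The median log2 ratio of the 9 members was -0.03, 0.07 and 0.26 in the sex comparisons at 3, 4 and 8 wk. It was 0.15 in F8/F4, 0.19 in F8/F3, 0.34 in M8/M4 and 0.47 in M8/M3, while the median over all probes was at most 0.02 in each.

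**Figure D1:**
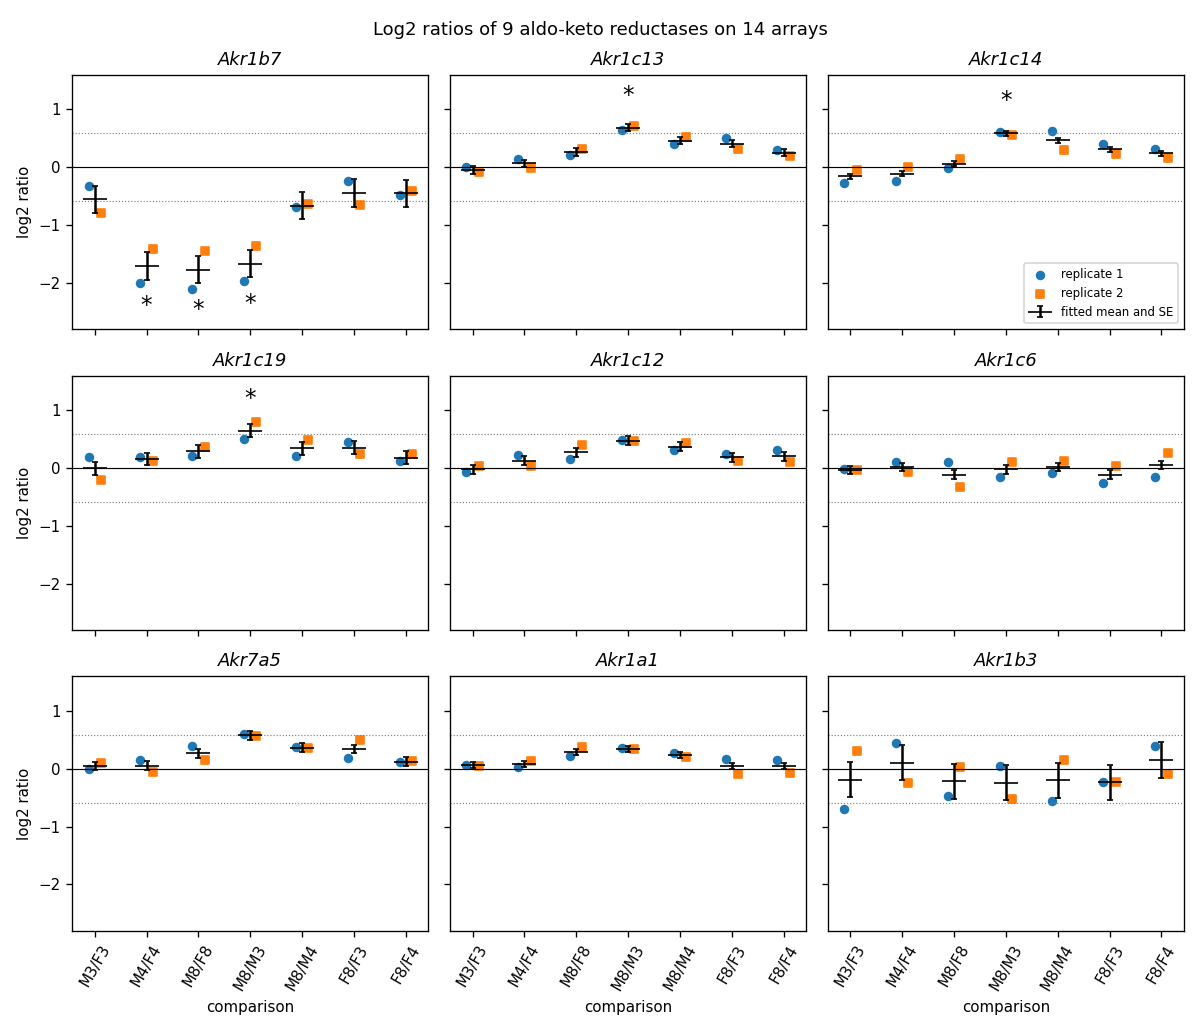
Log2 ratio of 9 aldo-keto reductases (1 panel each) in 7 comparisons; circles and squares are the 2 arrays, bars the fitted mean and its SE, asterisks the called values and dotted lines a ratio of 1.5 in either direction. Akr1b7 lies between -2.10 and -1.37 on all 6 arrays of M4/F4, M8/F8 and M8/M3, while Akr1c13, Akr1c14 and Akr1c19 pass the upper line in M8/M3.

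Akr1b7 was the member with the largest sex difference and the only one called in a sex comparison. It encodes an aldose reductase-like protein, first described in mouse vas deferens, that reduces aldehydes released in steroid synthesis and lipid peroxidation. In M4/F4 the ratio was -2.01 and -1.41 on the 2 arrays, a 3.27-fold lower level in males (mean -1.71, SE 0.24, adjusted p = 0.00446). In M8/F8 it was -2.10 and -1.44, or 3.42-fold lower in males (mean -1.77, SE 0.24, adjusted p = 0.00387). At 3 wk both arrays were also below 0, at -0.32 and -0.79, and the mean of -0.55 did not pass the test (adjusted p = 0.193).

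From 3 to 8 wk Akr1b7 fell 3.18-fold in male liver, with ratios of -1.97 and -1.37 (mean -1.67, SE 0.24, adjusted p = 0.00489). The ratio from 4 to 8 wk was -0.69 and -0.63 in males (mean -0.66, adjusted p = 0.126), and through the shared M8 pools the M4/M3 ratio came to -1.01 (SE 0.33, adjusted p = 0.265). Neither interval passed the test on its own, and M8/M4 and M4/M3 were each called under 2 of 29 alternatives (6 group means and error-weighted averages). In female liver the ratios were -0.24 and -0.65 from 3 to 8 wk (adjusted p = 0.303), and -0.49 and -0.42 from 4 to 8 wk (adjusted p = 0.294). The change from 3 to 8 wk differed between males and females by -1.22 (SE 0.33, 95% interval -2.02 to -0.43, adjusted p = 0.105 over all probes), which did not pass the test. The difference in the change from 4 to 8 wk was -0.21 (adjusted p = 0.925). No member was called for these differences, for which the background was 3.22% and 1.34%, or for M4/M3 (background 0.231%). Fitting 6 group means in place of the 7 comparisons, Akr1b7 was called for the difference from 3 to 8 wk (-1.24, adjusted p = 0.00292) and for M4/M3 (-1.05, adjusted p = 0.0386). That fit takes repeated arrays of the same 2 pools per group as independent, so its p-values are likely too small. The share of all probes that it called was not computed. The difference from 3 to 8 wk was called under 3 of 30 alternatives. With normexp and loess it was -0.53 (adjusted p = 0.541). At an unadjusted p below 0.05, the 7-comparison fit passed 5 members for the difference from 3 to 8 wk (24.4% of all probes). It passed 2 for that from 4 to 8 wk (16.4%) and 2 for M4/M3 (16.1%). M8/M3 and F8/F3 were hybridized on different slides. Read instead as M8/F8 minus M3/F3, which shared slides, the first difference was -1.22 (adjusted p = 0.106).

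The intensities show the same order. The processed intensity of Akr1b7 was 44.7 to 96.6 in M8 (median 67.3, 6 channels), 72.3 to 117 in M4 (median 93.5, 4 channels) and 171 to 249 in M3 (median 215, 4 channels). In females it was 221 to 353 in F8 (median 276, 6 channels), 285 to 403 in F4 (median 352, 4 channels) and 248 to 553 in F3 (median 311, 4 channels). The channels of M4 and M8 lay below those of the other 4 groups without overlap. Channels of a group are repeated measurements of its 2 pools, from the same spots as the ratios, and are not independent of them. Placed on 1 scale by least squares over the ratios of each pool number, with F8 at 0, the mean level was -1.80 in M8 (pools -2.11 and -1.49), -1.18 in M4 (-1.45 and -0.91), -0.13 in M3 (-0.12 and -0.13), 0.44 in F3 (0.22 and 0.65) and 0.49 in F4 (0.52 and 0.46). F3 and F4 overlapped by pool, while both M4 pools lay below both M3 pools. M8 and M4 were not clearly apart across pools: M8 pool 2 (-1.49) and M4 pool 1 (-1.45) nearly met, with fit residuals of 0.063 and 0.051. Within each pool number M8 lay below M4. Relative to the F8 pool of its number, pool 1 of the males was the lower pool at both 4 and 8 wk. A difference between the 2 F8 pools would shift these levels, so it cannot be told apart from a difference between male pools.

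**Figure D2:**
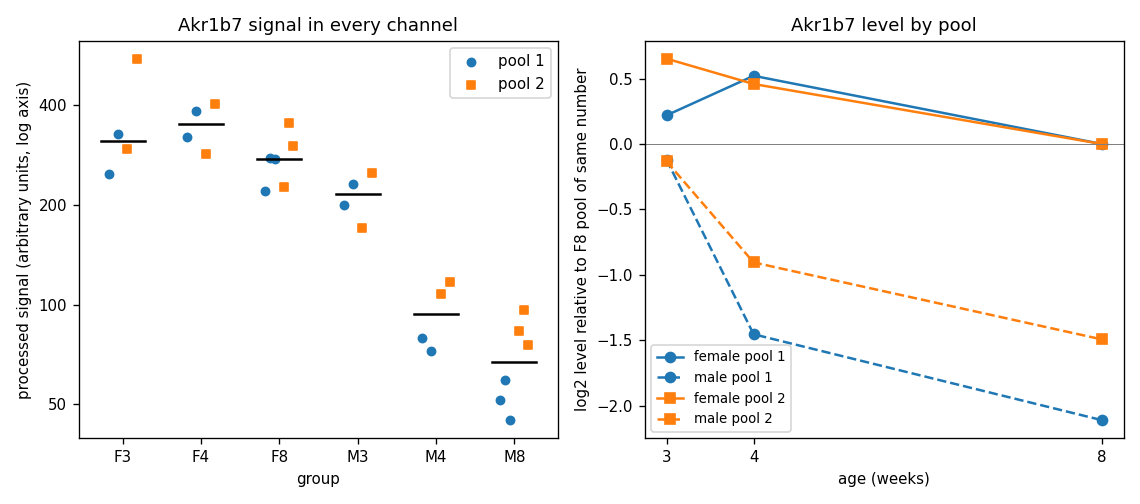
Akr1b7 processed intensity in every channel by group (left, log axis, line at the median) and its log2 level by pool relative to the F8 pool of the same number, by age in weeks (right). M4 and M8 channels lie at 44.7 to 117 and those of the other groups at 171 to 553; on the right both M4 pools lie below both M3 pools.

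Akr1b7 was dim, and 2 of its calls were lost when 1 array was left out. The comparison then holds a single array, assumed to vary like the arrays of the other comparisons, so these p-values have no replicate of their own. Without replicate 1 of M4/F4 the mean was -1.39 (adjusted p = 0.0510), and without replicate 1 of M8/M3 it was -1.28 (adjusted p = 0.0542). After normexp background correction and loess of the unprocessed intensities, the M8/M3 ratio was smaller at -0.94 and was still called. Adrenal cortex expresses Akr1b7 strongly, so its markers were read on the same arrays: Cyp11a1 and Cyp11b1 were well above background in 0 of 28 channels each, while Cyp21a1 and Star were so in all 28. Cyp21a1 was called higher in M8/M3 (1.27), the opposite direction to Akr1b7, and their part in the Akr1b7 ratios was not tested. Of the 4 intestinal markers, Cdx2 and Lct were well above background in 3 and 1 of 28 channels, while Vil1 was so in 22 and Fabp2 in all 28. Of 5 Kupffer cell markers, 3 were called lower in M8/F8 (median of all 5, -0.59), and their summed intensity was 14262 to 21241 in M8 and 23148 to 34673 in F8. In the other comparisons where Akr1b7 was called, Marco was called lower in M4/F4 (-0.69; median of all 5, -0.32), and Marco (-2.20) and Adgre1 (-0.86) in M8/M3 (median -0.44). The summed intensity was 22526 to 30617 in M4, 26872 to 36951 in F4 and 17267 to 28586 in M3. Their part was not tested either.

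The genes with ratios most like those of Akr1b7 over the 14 arrays, among 3530 genes outside the family that were called in some comparison, were As3mt (arsenic methyltransferase, r = 0.951), Rdh9 (a retinol dehydrogenase, r = 0.951) and Hmgcs1 (the cytosolic synthase of the cholesterol pathway, r = 0.940). Their log2 ratios in M8/F8 were -1.09, -0.97 and -0.84, and in M4/F4 -0.82, -0.98 and -0.61. The likeness did not hold in every comparison: Hmgcs1 lay above 0 in M3/F3 (0.18), F8/F4 (0.25), F8/F3 (0.45) and M8/M4 (0.10), and As3mt in F8/F4 (0.07) and F8/F3 (0.11), where Akr1b7 lay below 0. Arrays share pools, so the 14 values are not independent and the r is a description.

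Akr1c13, Akr1c14 and Akr1c19 were the members called higher with age, all in males from 3 to 8 wk. Akr1c13, a broad-specificity reductase and dehydrogenase, gave 0.65 and 0.72 in M8/M3, a 1.61-fold higher level at 8 wk (mean 0.69, SE 0.06, adjusted p = 0.00107). Akr1c14, which inactivates dihydrotestosterone and other ketosteroids by reduction, gave 0.61 and 0.57, or 1.504-fold (mean 0.59, SE 0.04, adjusted p = 0.000503). Akr1c19 gave 0.50 and 0.80, or 1.57-fold (mean 0.65, SE 0.11, adjusted p = 0.0101). Both arrays were above 0 for all 3 genes. Akr1c12, the near neighbour of Akr1c13, gave 0.48 and 0.47, with an adjusted p of 0.00861 and a ratio of 1.39, under the fold threshold.

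The calls of Akr1c14 and Akr1c19 in M8/M3 lay close to the threshold and were lost under 5 and 3 of 29 alternatives. With the replicate number as a block, Akr1c14 gave 0.58 (adjusted p = 0.00214), just under the fold threshold, as it was with normexp and loess (0.55) and with 6 group means (0.58). With the slide as a block Akr1c14 gave 0.55 and Akr1c19 gave 0.60 (adjusted p = 0.0742), and neither was called. Without replicate 2 of M8/M3, with the single array left assumed to vary like the others, Akr1c14 gave 0.51 and Akr1c19 gave 0.54 (adjusted p = 0.107), and neither was called. At a limma unadjusted p below 1e-04 Akr1c19 was not called either. Akr1c13 was called under all 29 alternatives run for M8/M3, with log2 ratios of 0.65 to 0.72.

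From 4 to 8 wk the males gave 0.40 and 0.52 for Akr1c13 (mean 0.46, adjusted p = 0.00477) and 0.63 and 0.30 for Akr1c14 (mean 0.47, adjusted p = 0.00116). These differences passed the adjusted p and not the fold threshold. Akr1c19 gave 0.21 and 0.48 (adjusted p = 0.0944) and Akr1c12 0.31 and 0.43 (adjusted p = 0.0226). In females Akr1c13 gave 0.50 and 0.32 in F8/F3 (adjusted p = 0.00756), and Akr1c14 0.40 and 0.23 (adjusted p = 0.00508). In F8/F4 they gave 0.30 and 0.20 (adjusted p = 0.0444), and 0.32 and 0.17 (adjusted p = 0.0137). All of these arrays were above 0 and all of these means were under the fold threshold.

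Differences between male and female age changes of the AKR1C members were smaller than the fold threshold. From 3 to 8 wk they were 0.28 for Akr1c13 (95% interval 0.06 to 0.50, adjusted p = 0.166), 0.27 for Akr1c14 (0.12 to 0.43, adjusted p = 0.0674), 0.30 for Akr1c19 (-0.08 to 0.67, adjusted p = 0.385) and 0.29 for Akr1c12 (0.03 to 0.55, adjusted p = 0.227). In M8/F8 Akr1c13 gave 0.21 and 0.31 (adjusted p = 0.0395, 1.20-fold) and Akr1c12 0.15 and 0.40 (adjusted p = 0.0648). Akr1c14 gave -0.02 and 0.14 (adjusted p = 0.518) and Akr1c19 0.21 and 0.37 (adjusted p = 0.146). No AKR1C gene among the chosen members was thus called between the sexes at any age. Akr1c18, which is not on the member list, was called lower in males in M4/F4 (-0.83) and M8/F8 (-1.42).

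**Figure D3:**
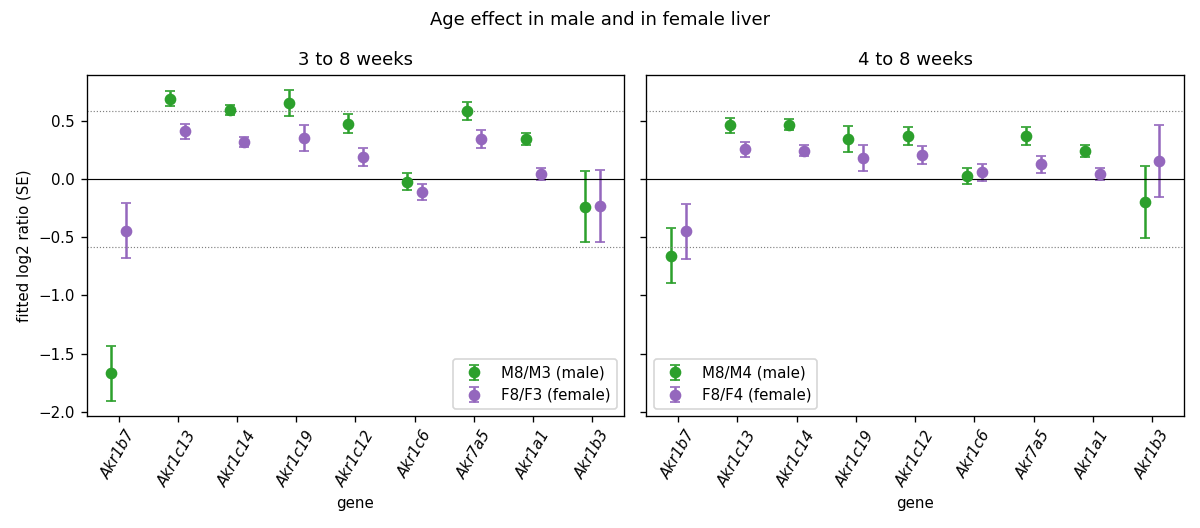
Fitted log2 ratio (SE) of 9 members in males and females, from 3 to 8 wk (left) and from 4 to 8 wk (right); dotted lines mark a ratio of 1.5. In the left panel Akr1b7 lies at -1.67 in males and -0.44 in females, and Akr1c13 at 0.69 and 0.41.

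Akr1c6, the enzyme that interconverts estrogens and androgens with their keto forms, had processed intensities of 75831 to 177268, and its 14 ratios lay between -0.33 and 0.27. Its means ran from -0.11 (M8/F8 and F8/F3) to 0.06 (F8/F4), none passed the adjusted p, and the 95% interval of M8/F8 was -0.28 to 0.06. The levels of Akr1c13 in the 6 groups, relative to F8, were in the order M3 (-0.44), F3 (-0.40), F4 (-0.26), M4 (-0.20), F8 and M8 (0.26). M3 and F3 overlapped, F4 overlapped M4, and both M8 pools (0.21 and 0.31) were above all others. For Akr1c14 the order was M3 (-0.49), M4 (-0.37), F3 (-0.33), F4 (-0.25), F8 and M8 (0.08), and only F4 and F8 among these neighbours did not overlap, with F8 fixed at 0. For Akr1c19 it was M3 (-0.35), F3 (-0.35), F4 (-0.19), M4 (-0.04), F8 and M8 (0.30), with both M8 pools above the rest.

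Over the 14 arrays the ratios of Akr1c13 correlated with those of Akr1c12 (r = 0.883), Akr1c19 (r = 0.875), Akr1c14 (r = 0.849) and Akr7a5 (r = 0.796). Akr1b7 had r of -0.40 to 0.10 with the other 8 members and Akr1c6 -0.50 to 0.16. These are descriptions over arrays that share pools. Transcripts of neighbouring AKR1C genes resemble each other, and whether a probe also binds the transcript of a neighbour was not tested. The genes outside the family most like Akr1c13 were Mtx3 (r = 0.985), Pdha1, a subunit of pyruvate dehydrogenase (r = 0.980), and Fbxo21 (r = 0.979), with M8/M3 ratios of 1.36, 0.60 and 2.78. Those most like Akr1c14 were Pard3 (r = 0.971), Sgk2 (r = 0.965) and Gm9495 (r = 0.957), and those most like Akr1c19 were Atp11a (r = 0.924), Nlrp12 (r = 0.920) and Rnase10 (r = 0.909).

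Akr7a5, a reductase of succinic semialdehyde and aflatoxin dialdehyde, gave 0.60 and 0.57 in M8/M3 (mean 0.58, SE 0.08, adjusted p = 0.00367), which at 1.496-fold lay just under the threshold. It passed with the replicate block (0.59), with the slide block (0.62) and without replicate 2 of M8/M3 (0.65). In M8/M4 it gave 0.37 and 0.36 (adjusted p = 0.0215). The female ratios from 3 to 8 wk were 0.19 and 0.50 (adjusted p = 0.0270). In M8/F8 it gave 0.39 and 0.16 (adjusted p = 0.0620).

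Akr1a1, the aldehyde reductase of the ascorbate pathway, differed by small and even amounts in males. The ratio was 0.35 and 0.33 in M8/M3 (1.27-fold, adjusted p = 0.00621), 0.27 and 0.21 in M8/M4 (adjusted p = 0.0240) and 0.22 and 0.37 in M8/F8 (1.23-fold, adjusted p = 0.0110). In females the arrays disagreed in sign, with 0.17 and -0.08 from 3 to 8 wk, and 0.16 and -0.07 from 4 to 8 wk. The difference between the sexes in the change from 3 to 8 wk was 0.30 (95% interval 0.12 to 0.47, adjusted p = 0.0792).

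Akr1b3, the aldose reductase that turns glucose to sorbitol, had replicates that disagreed in sign in 6 of 7 comparisons on its brighter probe, for example -0.69 and 0.31 in M3/F3 and 0.45 and -0.24 in M4/F4. Only F8/F3 had both arrays on 1 side, at -0.23 and -0.23. Its SE was 0.31 and its second probe gave -0.66 and 0.42 in M3/F3. In M8/F8 the 95% interval of -0.95 to 0.51 leaves changes of either direction possible.

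The remaining family members were a mixed group, of which 7 to 8 of 10 were bright enough in 6 comparisons and 6 in M4/F4. Akr1c18, which inactivates progesterone and lies between Akr1c14 and Akr1c13, went the other way from its neighbours. It was called lower in all 4 age comparisons, with -3.52 and -3.26 in M8/M3 (mean -3.39, adjusted p = 0.000267), -2.27 and -2.57 in F8/F3 (mean -2.42), -1.82 in F8/F4 and -2.13 in M8/M4. It was also called lower in males in M4/F4 (-0.83, adjusted p = 0.0440) and M8/F8 (-0.92 and -1.91, mean -1.42, adjusted p = 0.00595). Its intensity was 50.04 to 217 in M8, 155 to 478 in F8, 1341 to 2079 in M3 and 1207 to 2847 in F3. Akr1d1, the steroid reductase of bile acid synthesis, was called lower in M8/F8 (-0.92 and -0.63, mean -0.78) and M8/M3 (-0.62). On chromosome 6, Akr1b10 was called lower in M8/M3 (-0.67 and -0.77, mean -0.72, adjusted p = 0.0116), the same direction as Akr1b7 beside it, while Akr1b8 was at -0.48 and Akr1b3 at -0.24 and neither was called. Kcnab1, a potassium channel subunit of the family, was called lower in M8/F8 (-0.90) and higher in F8/F3 (0.64).

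**Figure D4:**
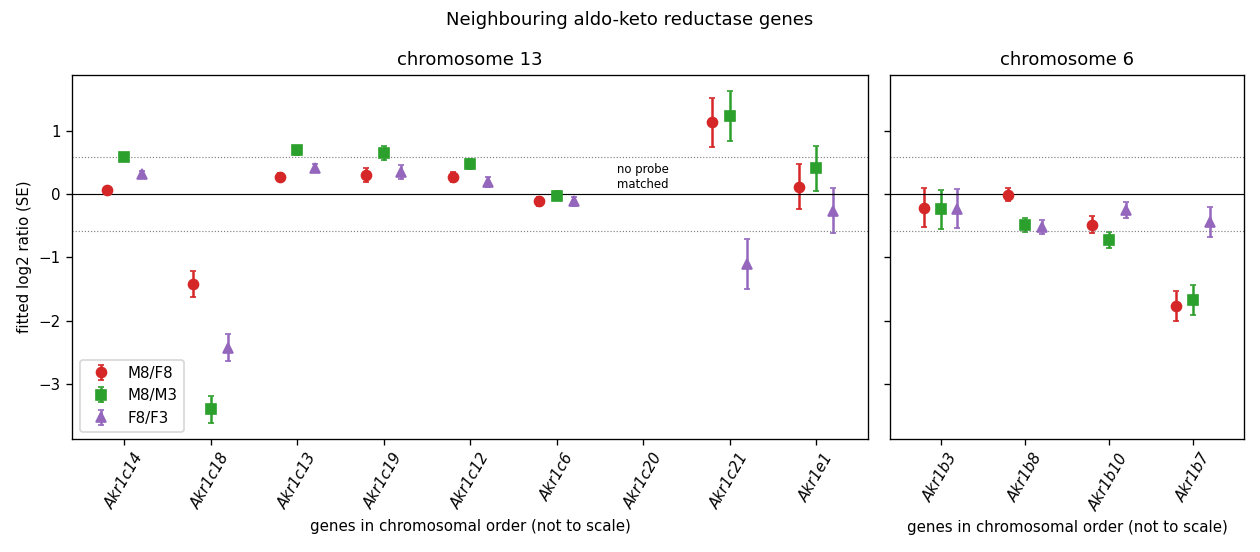
Fitted log2 ratio (SE) in M8/F8, M8/M3 and F8/F3 of the aldo-keto reductase genes in their order on chromosomes 13 and 6 (spacing not to scale). Akr1c18 lies at -3.39 in M8/M3 between Akr1c14 at 0.59 and Akr1c13 at 0.69; Akr1c20 had no matched probe.

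Among 14 other steroid oxidoreductases, 3 were called in at least 1 comparison. Of all 19751 matched genes, 3530 outside the family with a ratio on every array were so called. Srd5a1, which makes dihydrotestosterone, was called higher in M8/F8 (0.81 and 0.98, mean 0.89) and M8/M3 (1.24 and 0.92, mean 1.08). Hsd17b6 was called higher with age in both sexes, at 1.23 in M8/M3 and 0.73 in F8/F3. Hsd17b13 was called lower in M8/M4 (-0.83 and -1.64, mean -1.23). The other 11 genes were called in none of the 7 comparisons.

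Of 8 genes of glucuronate and ascorbate metabolism, the pathway of Akr1a1, Ugdh was called higher with age at 0.82 in F8/F3, 1.09 in M8/M4 and 1.58 in M8/M3, and higher in males at 0.91 in M8/F8. Miox, which degrades inositol to glucuronate, was called lower in all comparisons but M3/F3, with -1.11 in M8/F8, -1.96 in M8/M3 and -1.35 in F8/F3. Rgn was called lower in M8/F8 (-0.72) and Ugp2 higher in F8/F3 (0.59). Of 4 polyol and fructose genes, the pathway of Akr1b3, 0 were called by limma in any of the 7 comparisons, and at most 2 (in F8/F3 and M8/M3) had an unadjusted p below 0.05, as did 48.3% and 56.7% of all probes there. Their log2 ratios in M8/F8 ran from -0.34 to -0.07.

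Of 10 other carbonyl and enone reductases, Cbr1 and Nqo1, a carbonyl and a quinone reductase, were called lower in males at 8 wk (-0.93 and -0.99 in M8/F8). In males they were also called lower with age, at -1.05 and -1.19 from 3 wk (M8/M3) and at -0.75 and -0.84 from 4 wk (M8/M4). Ptgr1, which reduces prostaglandins and leukotrienes, was called lower with age in both sexes, at -1.03 in M8/M3 and -0.70 in F8/F3. Dhrs3 was called higher in F8/F3 (0.59). The medians of this list were near 0 in all comparisons (for example -0.04 in M8/F8).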

How the data were processed

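Liver RNA pools were compared on 14 two-color Agilent mouse arrays, with 2 arrays per comparison. The scanner files, as the authors deposited them, hold spot intensity per channel and the log10 ratio of red over green from Feature Extraction 10.7.1.1, after background subtraction and within-array dye normalization (linear and LOWESS). The modelled error of each ratio, deposited beside it, served only in the error-weighted averages. The deposited table of log10 ratios for the whole series differed from the scanner ratios by 0. Here ratios were turned to male over female or older over younger by the dyes in the labels, changed to log2, and averaged over spots of a probe after control and outlier spots were left out.

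Of 39429 probes, 26055 matched a gene through RefSeq accessions (GRCm38.p6) and 13374 did not. The brightest probe stood for a gene. limma 3.58.1 in R 4.3.3 fitted 7 comparisons and 1 dye term (residual df 6), with Benjamini-Hochberg adjustment over all probes and comparisons together. Differences between the sexes in age changes, and M4/M3, were adjusted within each contrast. Calls needed an adjusted p below 0.05 and a ratio above 1.5 or below its inverse, with a group well above background on both arrays. Named genes were all members, every gene of the further lists called in at least 1 comparison, and the 3 genes most alike to each called member. Promoter windows were the 200 bases before the start used in the RefSeq promoter table, searched for 6 motifs and aligned with biopython 1.88.

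The same 12 pools served in several comparisons, so the comparisons are not independent. The replicate number in the labels marks the pool: the difference between replicates, taken once from the age and once from the sex comparisons of the same 4 groups, correlated over 21650 probes (r = 0.882 for 3 to 8 wk and 0.878 for 4 to 8 wk). For each replicate number, the arrays of M8/M3 and the sex comparisons lay on 1 slide and those of the other 3 comparisons on another, so each within-slide value is that array's own ratio. The number of arrays limits the precision. Members and lists were chosen with earlier results of these data known.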

Additional observations from a re-analysis of the deposited data

Results flagged for a closer look

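In 5 genes of the pathway and family lists, in 1 gene of the marker lists and in no member, the change from 3 to 8 wk differed between males and females by the limma test of the difference itself (adjusted within the contrast; 3.22% of all probes were called). On the log2 scale, M8/M3 minus F8/F3 was -0.67 for Akr1d1 (adjusted p = 0.00177), with -0.62 in males and 0.05 in females. It was 0.63 for Srd5a1 (adjusted p = 0.00997), with 1.08 in males and 0.45 in females. For Miox it was -0.62 (adjusted p = 0.0286), and the gene was called lower in both sexes, at -1.96 and -1.35. For Cbr1 it was -0.88 (adjusted p = 0.00412), with -1.05 and -0.17, and for Nqo1 it was -1.21 (adjusted p = 0.0227), with -1.19 and 0.02. Of the marker lists, the erythroid marker Alas2 gave 1.64 (adjusted p = 0.0134), with 1.37 in males and -0.27 in females. In each of these genes both M8/M3 arrays lay on 1 side of 0. M8/M3 and F8/F3 were run on different slides. Groups of 2 arrays are too small to test for an outlying array.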

How the results depend on the processing

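The results were recomputed under 30 alternatives, of which 14 left out 1 array, and no value called in either setting reversed. Fitting 6 group means called 1 member (Akr1b7) in M8/M4, in the sex difference of the change from 3 to 8 wk (-1.24, adjusted p = 0.00292) and in M4/M3 (-1.05, adjusted p = 0.0386), where the 7-comparison fit called 0. The 6-group fit takes repeated arrays of the same 2 pools per group as independent, so its p-values are likely too small. Error-weighted averages also called 1 in each of these (10.9% of all probes in M8/M4). Under the alternatives, the share of all probes called was computed only where it is given. Fitting only probes bright in all 7 comparisons, an alternative chosen after seeing the data, called 1 in the sex difference from 3 to 8 wk (Akr1b7, adjusted p = 0.0471). At a limma unadjusted p below 1e-04, 0 were called in M4/F4, 0 in M8/F8 and 2 in M8/M3, with no share over all probes computed. With no fold threshold the counts were 3 in M8/F8, 2 in F8/F4, 3 in F8/F3, 5 in M8/M4 and 7 in M8/M3, since smaller ratios then count. Of all probes, 20.5%, 18.8%, 30.7%, 27% and 38.9% then passed in these comparisons, in either direction. Leaving out 1 array gave 0 to 1 calls in M4/F4 and 3 to 4 in M8/M3, where the single array left is assumed to vary like the others. With the replicate block the counts stayed 1 in M4/F4, 1 in M8/F8 and 4 in M8/M3, with Akr1c14 (0.58) lost and Akr7a5 (0.59) gained in M8/M3. The slide block gave 3 in M8/M3. Normexp and loess lowered the Akr1b7 ratio to -0.94 in M8/M3 and -1.29 in M8/F8, and its sex difference from 3 to 8 wk to -0.53 (adjusted p = 0.541). The causes were not tested. Aquantile normalization was computed but used for no result, because it served only lower bounds for dim probes and every member was well above background. Akr1b7 was the dimmest member, and replicate pools are too few to bound differences among mice.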
